A study of Mus musculus with 36 samples.

Results

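Diabetic kidney cortex was compared with nondiabetic kidney cortex over all treatments, with every library of the series in a single model. The comparison took its members from the sample labels alone and used 36 of 36 libraries, 18 from diabetic and 18 from nondiabetic mice, with treatment as a covariate and all genes tested. Libraries were made from total RNA of kidney cortex that had been depleted of ribosomal RNA, and all mice were male ApoE-/- mice on a C57BL/6 background, which lack apolipoprotein E and are prone to atherosclerosis. Per the labels, the diabetic mice had received streptozotocin, a DNA-alkylating toxin taken up by pancreatic beta cells, at 6 weeks of age in 5 daily doses of 55 mg/kg. What the nondiabetic mice were injected with at that age is not given in the labels. Streptozotocin is given for the diabetic mice alone, so exposure to it and raised blood glucose cannot be told apart in this comparison.

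The diabetic groups were given lipoxin A4 (LXA4) at 5 µg/kg, its synthetic benzo-fused analog benzo-LXA4 at 1.7 µg/kg, or ethanol vehicle at 0.1%, each 2 times a week, and the nondiabetic groups were given the same 3 treatments. Each of the 6 groups had 6 libraries, so each treatment is a stratum of 6 diabetic and 6 nondiabetic libraries, and the 3 strata share no library. The labels describe an intervention with treatment in weeks 10 to 16 but do not tie these libraries to it by name. They number the replicates without saying that each is a separate mouse, so p-values measure sample-to-sample spread, part of which may be technical.

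In the kidney cortex, most cells belong to the proximal tubule, which takes up glucose, phosphate, amino acids and filtered protein and runs mainly on fatty acid oxidation. Diabetes raises the glucose load on these cells, and tubular cells under stress are known to lower transporter genes and to express injury markers. The transcription factor p53 is stabilised by DNA damage and other stresses and switches on genes for cell cycle arrest, DNA repair and apoptosis, the best known of which is Cdkn1a, encoding the cyclin-dependent kinase inhibitor p21.

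The 18 diabetic libraries held 8896193 to 35906294 counts each, and the 18 nondiabetic libraries 10086698 to 43305005. Ribosomal and small structural RNA genes took 56.9% of the counts of diabetic LXA4 replicate 6 and 17.7% of those of nondiabetic vehicle replicate 3, the shallowest libraries, and at most 6.81% in the other 34. Counts without this pair of libraries are given beside those with it where the count moved by more than 1.5 times. Apoe, disrupted in all of these mice, had reads in every library, between 1.62 and 3.07 CPM in diabetic and between 1.7 and 3.42 CPM in nondiabetic libraries, and its diabetes difference was −0.0004 on the log2 scale (SE 0.098, adjusted p = 0.998). CPM here are counts relative to the library total after scaling by the trimmed mean of M values (TMM), and counts cover the whole Apoe gene, so the check does not show how much of the transcript is left.

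Of 15726 genes tested, 5385 (34.2%) passed an adjusted p of 0.05 in edgeR's quasi-likelihood test, and such genes are called below. Of these, 2841 (18.1% of the genes tested) were higher and 2544 (16.2%) were lower in diabetic mice. Without the pair of libraries rich in structural RNA 3440 were higher and 3822 lower, so that the majority turned from higher to lower genes. Most differences were small. The median absolute log2 difference of the called genes was 0.309, and 1969 of them (36.6%) differed by less than 0.25, while 208 genes were at least 2-fold higher and 58 at least 2-fold lower.

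The 3 genes with the widest gap between the lowest diabetic and the highest nondiabetic library, Trp53cor1, Psrc1 and Cdkn1a, are p53 targets. Cdkn1a had 25.4, 38.6 and 50.6 CPM as its lowest, median and highest level in the 18 diabetic libraries, against 2.55, 5.12 and 9.49 CPM in the 18 nondiabetic libraries. Its lowest diabetic library stood above its highest nondiabetic library in each treatment. The log2 difference, diabetic minus nondiabetic, was 2.85 (95% interval 2.55 to 3.14, adjusted p = 4.66e-17), and by treatment it was 3.22 with vehicle, 2.63 with LXA4 and 2.71 with benzo-LXA4. Trp53cor1 is a long noncoding RNA gene that lies next to Cdkn1a and is itself a p53 target. It had 3.07, 6.33 and 8.24 CPM in diabetic libraries, against 0.229, 0.628 and 0.898 CPM in nondiabetic libraries, again without overlap. Its difference of 3.36 (interval 3.09 to 3.62, adjusted p = 1.42e-20) was nearly the same in each treatment, at 3.26 with vehicle, 3.42 with LXA4 and 3.38 with benzo-LXA4. The strand setting of the counting is not given in the sources used here, and the annotated spans of Trp53cor1 (chr17:29057430-29079179, minus strand, GRCm38) and Cdkn1a (chr17:29090976-29100727, plus strand) do not overlap. In whole cortex, a change in the number of cells of a type and a change in RNA per cell cannot be told apart, here and in every result that follows.

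Eda2r, which encodes the ectodysplasin A2 receptor and is a p53 target, differed by 3.46 (SE 0.153, adjusted p = 6.76e-19). It stood between 7.38 and 12.1 CPM in diabetic vehicle libraries, against 0.458 to 0.793 CPM in nondiabetic vehicle libraries. With benzo-LXA4 it stood between 7.87 and 9.22 CPM in diabetic libraries, against 0.496 to 1.1 CPM in nondiabetic libraries. The groups overlapped only in the LXA4 stratum, where diabetic replicate 6, the library richest in structural RNA, had 0.945 CPM and the other diabetic libraries 8.85 to 11.7 CPM. Psrc1, a microtubule regulator induced by p53, had 1.12, 1.86 and 2.6 CPM in diabetic libraries, against 0, 0.138 and 0.36 CPM in nondiabetic libraries, with a difference of 3.72 (SE 0.199, adjusted p = 1.33e-16).

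**Figure D1:**
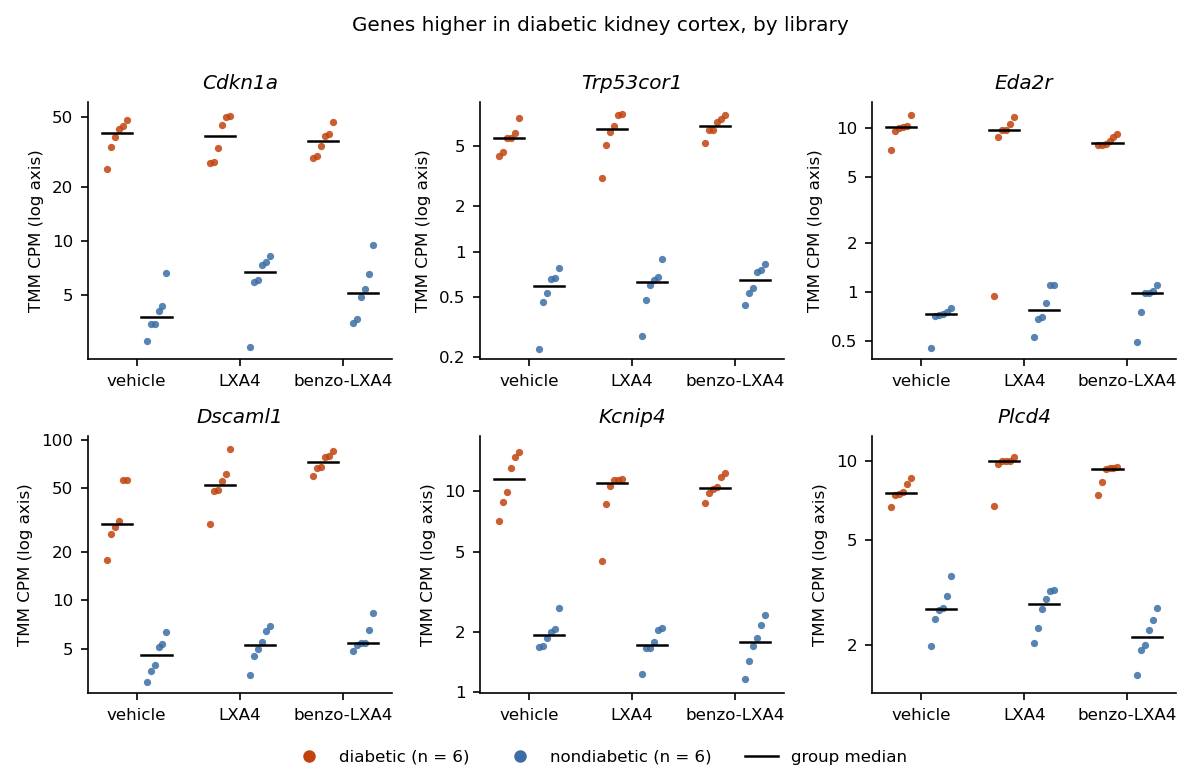
Level of 6 genes in each library (vertical log axis, TMM CPM), by treatment, with 6 diabetic libraries left and 6 nondiabetic libraries right in each pair and a bar at the group median. In Cdkn1a, Trp53cor1, Dscaml1, Kcnip4 and Plcd4 every diabetic library lies above every nondiabetic library, and in Eda2r 1 diabetic LXA4 library, at 0.945 CPM, lies among the nondiabetic ones.

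Of 38 p53 target genes measured, 23 were higher and 2 were lower, beside 18.1% and 16.2% of all genes tested, and the list's median log2 difference was 0.39, beside 0.01 for all genes. The summed level of the list ran from 1210 to 1450 CPM in diabetic libraries, with a median of 1280, and from 899 to 1040 CPM in nondiabetic libraries, with a median of 955, so the groups did not overlap. Of the members, 15 were called in each of the 3 strata, beside 1.42% of all genes tested. Next to Cdkn1a, Trp53cor1, Eda2r and Psrc1 they were Gtse1 (2.08), Ckap2 (1.99), Gdf15 (1.35), Ephx1 (1.28), Tnfrsf10b (0.96), Zmat3 (0.89), Ccng1 (0.86), Plk2 (0.85), Trp53inp1 (0.84), Aen (0.82) and Mdm2 (0.49), with the log2 difference over all treatments in brackets. Mdm2 is the ubiquitin ligase that degrades p53, Ccng1 encodes cyclin G1, Zmat3 a zinc finger protein that binds RNA, Gdf15 a stress cytokine, Tnfrsf10b a death receptor and Aen an exonuclease that acts in apoptosis.

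Other p53 targets did not follow. Perp (−0.23, adjusted p = 0.000985) and Dcxr (−0.27, adjusted p = 0.0129) were lower, and Bax (0.18, adjusted p = 0.254), Sesn2 (−0.08, adjusted p = 0.66), Fdxr (0.04, adjusted p = 0.727) and Pmaip1 (0.26, adjusted p = 0.0741) were not called. Trp53 itself, named after its value was seen, had a median of 21.5 CPM in diabetic libraries against 19.7 CPM in nondiabetic libraries, a difference of 0.12 (SE 0.0417, adjusted p = 0.0204). The 23 higher targets differed by between 0.25 and 3.72.

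The promoter windows of p53 targets show what sequence lies at these genes. The 250 bases before each annotated start were taken from RefSeq (GRCm38.p6), of which 11415 tested genes had a window, and searched on both strands. The decameric p53 motif was present in 11 of the 30 listed p53 targets with a window (36.7%), beside 843 of the 11415 tested genes (7.39%). Among genes called in each of the 3 strata, it was present in 14 of 131 higher genes with a window (10.7%). In the lower genes called in each stratum it was present in 5 of 38 (13.2%), so it was not more frequent in the higher genes. A full p53 site, made of a pair of such decamers with at most 13 bases between them, was present in 4 tested genes, Cdkn1a, Dnajc7, Itm2a and Pard3, of which only Cdkn1a was called (the others differed by 0.03, −0.20 and 0.01). Cdkn1a and Aen have more than 1 annotated start, and the window with the match is shown. The windows of Cdkn1a, which holds a full site, and of Mdm2 and Aen, which hold 1 decamer each, are printed 5′ to 3′ on the gene's strand, because these genes were higher in every treatment and hold a match, with the matched decamers in capitals.
Cdkn1a (chr17:29090729-29090978, plus strand): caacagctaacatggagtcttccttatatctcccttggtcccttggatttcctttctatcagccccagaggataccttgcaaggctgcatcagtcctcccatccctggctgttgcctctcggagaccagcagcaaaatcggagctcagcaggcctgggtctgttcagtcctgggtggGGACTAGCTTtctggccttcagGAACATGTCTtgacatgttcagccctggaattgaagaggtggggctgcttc
Mdm2 (chr10:117710759-117711008, minus strand): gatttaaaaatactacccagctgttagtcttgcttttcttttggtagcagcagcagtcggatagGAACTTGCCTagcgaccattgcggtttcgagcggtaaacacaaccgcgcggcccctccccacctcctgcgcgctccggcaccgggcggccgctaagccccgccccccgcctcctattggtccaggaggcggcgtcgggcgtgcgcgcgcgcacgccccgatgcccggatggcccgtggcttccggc
Aen (chr7:78895808-78896057, plus strand): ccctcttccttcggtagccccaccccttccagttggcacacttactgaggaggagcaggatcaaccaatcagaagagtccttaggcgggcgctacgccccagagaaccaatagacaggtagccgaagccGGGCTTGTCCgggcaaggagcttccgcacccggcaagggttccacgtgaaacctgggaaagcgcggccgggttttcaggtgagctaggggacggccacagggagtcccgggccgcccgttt
A match is a description of these letters, not evidence of binding, and Psrc1 and Eda2r, among the genes with the largest differences, held none in this window.

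Most listed genes of cell division were higher in diabetic mice, as was the inhibitor gene Cdkn1a. Of 36 cell cycle genes, 29 were higher (80.6%) and 0 were lower, beside 18.1% and 16.2% of all genes tested. The list's median was 0.75, and 31 members were higher without the pair of libraries rich in structural RNA. Mki67, a marker of cycling cells, had 4.03, 6.93 and 13.4 CPM as its lowest, median and highest diabetic level, against 1.06, 3.38 and 4.74 CPM in nondiabetic libraries (log2 difference 1.32, SE 0.173, adjusted p = 6.4e-07). The groups overlapped at their edges, with all 18 diabetic libraries above the nondiabetic mean. Cdk1, the kinase that starts mitosis, had 0.816, 1.45 and 2.26 CPM in diabetic libraries, against 0.387, 0.635 and 0.854 CPM in nondiabetic libraries (1.24, SE 0.147, adjusted p = 9.55e-08). Cyclin D1 (Ccnd1), which acts earlier in the cycle, was far more abundant, with 127, 185 and 291 CPM in diabetic libraries, against 84.8, 106 and 156 CPM in nondiabetic libraries (0.84, SE 0.0884, adjusted p = 7.19e-09).

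The cell cycle members called in each stratum were Tpx2, Mki67, Ccnd1, Cdk1, Mcm5, Rrm2 and Kif11. Of the 36, 12 were called higher with vehicle, 11 with LXA4 and 23 with benzo-LXA4, beside 3.44%, 15.4% and 2.81% of all genes tested, and the medians were 0.66, 0.52 and 0.87. Whether these medians differ between treatments was not tested beyond the gene-wise interaction described below. Pcna (0.05, adjusted p = 0.663), Mcm7 (0.00, adjusted p = 0.994) and Tk1 (0.01, adjusted p = 0.965), which act in DNA synthesis, were not called, whereas Rrm2, a subunit of ribonucleotide reductase, was (0.99, adjusted p = 2.56e-07). Most members had mean levels under 5 CPM, and with genes under that mean left out 5 of 10 remaining members were called, all higher.

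Promoters of genes that peak in mitosis often hold a TTTGAA element with CCAAT boxes near it. On either strand, the first of these was found together with a box of the second kind in 7 of 27 cell cycle genes with a window (25.9%), beside 560 of 11415 tested genes (4.91%), and the box with or without the element in 21 of 27 (77.8%), beside 4545 of 11415 (39.8%). The windows of Cdk1, Mki67 and Top2a, which hold both, are printed with the element and the boxes, on either strand, in capitals. Top2a, a topoisomerase that untangles chromosomes, differed by 0.80 (adjusted p = 0.00104).
Cdk1 (chr10:69352913-69353162, minus strand): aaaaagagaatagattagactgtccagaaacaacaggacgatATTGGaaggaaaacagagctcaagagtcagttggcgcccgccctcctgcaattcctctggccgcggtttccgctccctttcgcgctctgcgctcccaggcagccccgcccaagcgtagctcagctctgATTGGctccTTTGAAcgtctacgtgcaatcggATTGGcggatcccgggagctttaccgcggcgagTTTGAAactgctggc
Mki67 (chr7:135716380-135716629, minus strand): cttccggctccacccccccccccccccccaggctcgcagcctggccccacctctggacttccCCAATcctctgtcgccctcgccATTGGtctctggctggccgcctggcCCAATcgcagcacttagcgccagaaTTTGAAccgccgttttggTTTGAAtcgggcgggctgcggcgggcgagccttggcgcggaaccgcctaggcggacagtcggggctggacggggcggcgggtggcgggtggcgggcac
Top2a (chr11:99024190-99024439, minus strand): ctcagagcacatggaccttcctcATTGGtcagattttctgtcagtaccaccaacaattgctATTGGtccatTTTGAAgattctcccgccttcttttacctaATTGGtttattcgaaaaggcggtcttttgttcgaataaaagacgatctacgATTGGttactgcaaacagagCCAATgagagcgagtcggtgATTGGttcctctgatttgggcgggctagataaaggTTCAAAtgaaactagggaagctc

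**Figure D2:**
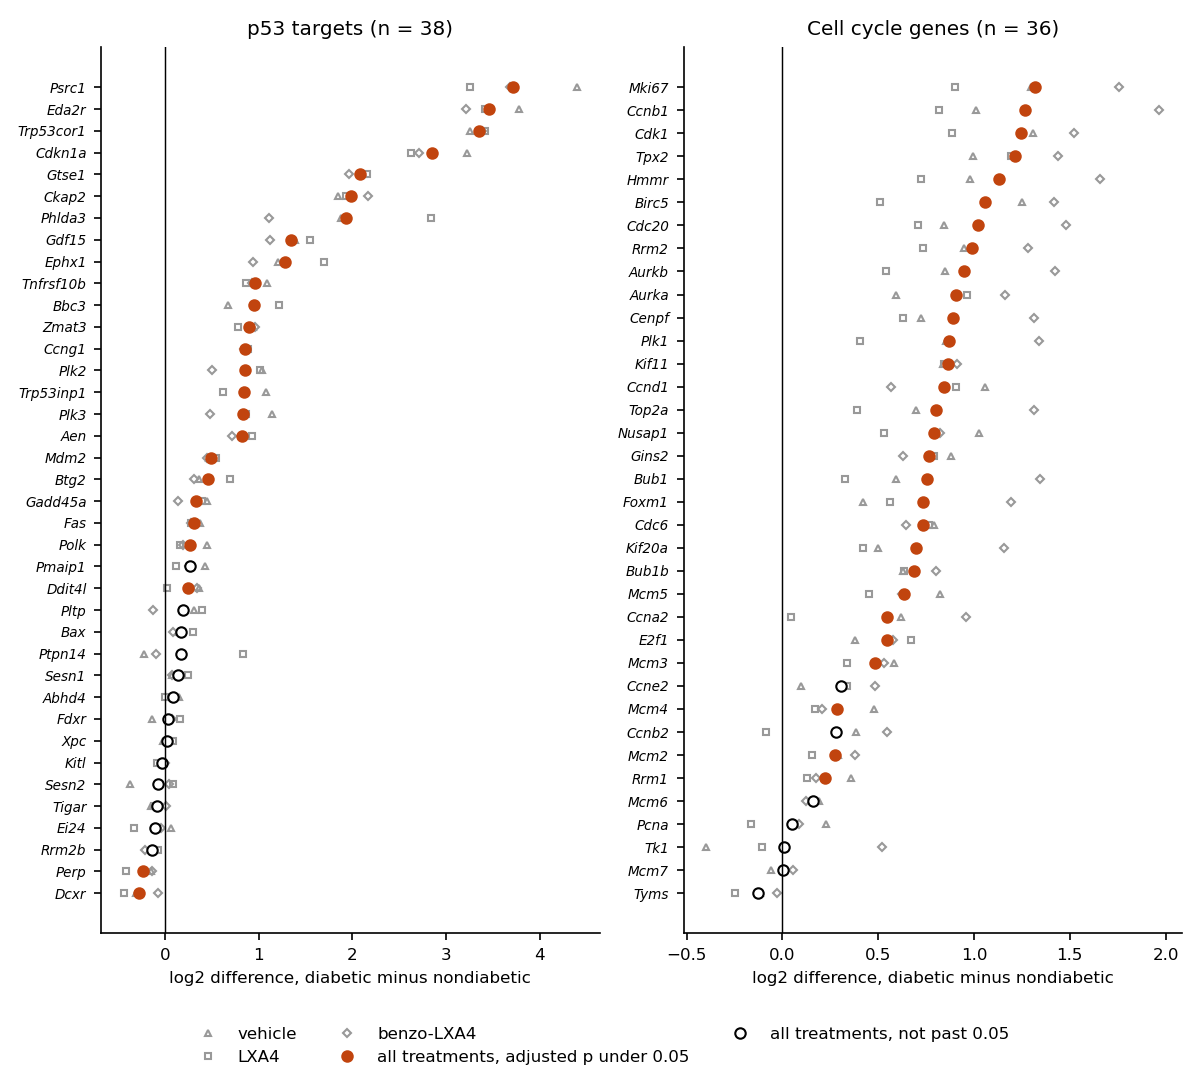
Log2 difference (horizontal axis, diabetic minus nondiabetic) of each measured member of the p53 target list (left, n = 38) and the cell cycle list (right, n = 36), over all treatments (large circles, filled where the adjusted p is under 0.05) and within each treatment (small open symbols). In the p53 list 23 members are filled above 0 and 2 below it, and in the cell cycle list 29 are filled above 0 and 0 below it.

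Outside these lists, further genes kept the groups apart, and shared roles among them were not tested. Genes are separated here when all 18 diabetic libraries lay above, or all below, all 18 nondiabetic libraries. There were 24 separated genes with diabetic libraries above (0.153% of those tested) and 1, Tcf24, with diabetic libraries below (0.00636%), together 25 (0.159%), and without the pair of libraries rich in structural RNA there were 45 and 4. Dscaml1, an adhesion protein with immunoglobulin domains, had 17.9, 56.2 and 88.3 CPM in diabetic libraries, against 3.09, 5.31 and 8.37 CPM in nondiabetic libraries (log2 difference 3.32, SE 0.151, adjusted p = 1.06e-18). Its median in diabetic libraries was 30 CPM with vehicle, 52.2 CPM with LXA4 and 73.2 CPM with benzo-LXA4, while the interaction of diabetes and treatment did not pass for this gene (adjusted p = 0.583).

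Kcnip4, which encodes a protein that binds potassium channels, had 4.49, 10.6 and 15.8 CPM in diabetic libraries, against 1.16, 1.81 and 2.63 CPM in nondiabetic libraries (2.54, SE 0.113, adjusted p = 6.76e-19). Plcd4, a phospholipase C, had 6.68, 8.99 and 10.4 CPM in diabetic libraries, against 1.55, 2.61 and 3.65 CPM in nondiabetic libraries (1.76, SE 0.0876, adjusted p = 1.73e-17). Both kept their groups apart in each treatment. Ano3, a member of the anoctamin family, differed by 3.49 (SE 0.207, adjusted p = 2.8e-15) at a median of 2.72 CPM in diabetic libraries, against 0.222 CPM in nondiabetic libraries. The DNA repair gene Mgmt, which removes alkyl groups from guanine, was separated as well, with 46.7, 73 and 95.6 CPM in diabetic libraries, against 22.3, 30.4 and 38.8 CPM in nondiabetic libraries (1.30, adjusted p = 3.94e-15).

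Many of the other separated genes were of low level. Fam212b differed by 2.61 and Tll2, which encodes a tolloid-like metalloprotease, by 2.85. The cold-sensing channel gene Trpm8 differed by 3.05 at a median of 0.755 CPM in diabetic libraries, against 0.0656 CPM in nondiabetic libraries, and Dpp6, which encodes a potassium channel partner, by 1.50. The others with annotated names were Zmat3, Psrc1, Ckap2, Gdf15, Gtse1, Trp53cor1 and Cdkn1a of the p53 list and Susd6, whose difference of 0.19 was small but had little spread. The remaining 8 were Gm10801, Gm13067, Gm37795, Gm45011, 4833428L15Rik, Gm26542, A930001C03Rik and the reduced gene Tcf24, of which Gm10801 and its relative Gm10800 are repeat-like predicted genes whose reads are uncertain.

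Ugt1a10 and Grem1 were among the genes with the largest differences but overlapped between groups. Ugt1a10, a glucuronosyltransferase gene, had 0.945, 8.72 and 52 CPM in diabetic libraries, against 0.407, 0.794 and 3.5 CPM in nondiabetic libraries (3.32, SE 0.385, adjusted p = 6.55e-08), and it shares exons with the other Ugt1a genes, so the source of its reads is uncertain. Grem1, a secreted antagonist of bone morphogenetic proteins, had 0, 1.37 and 9.74 CPM in diabetic libraries, against 0.0386, 0.18 and 0.628 CPM in nondiabetic libraries (3.20, SE 0.381, adjusted p = 1.12e-07). Of the 18 diabetic libraries, 16 lay above the nondiabetic mean of Grem1. In the list of 39 genes of TGF-beta and BMP signalling to which it belongs, 6 were higher (15.4%) and 3 lower (7.69%), with a median of 0.08, beside 18.1% and 16.2% of all genes tested. Without the pair of libraries rich in structural RNA 6 were higher and 6 lower.

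Most markers of the proximal tubule were lower in diabetic mice over all treatments. Of 38 markers, 27 were lower (71.1%) and 0 were higher, beside 16.2% and 18.1% of all genes tested, with a median log2 difference of −0.39. Without the pair of libraries rich in structural RNA 31 were lower and 0 higher. The summed level of the list ran from 23000 to 40000 CPM in diabetic libraries, with a median of 33100, and from 31700 to 51900 CPM in nondiabetic libraries, with a median of 44500. The medians of the list were −0.38 with vehicle, −0.56 with LXA4 and −0.30 with benzo-LXA4, and 6, 25 and 1 of the markers were called lower there, beside 2.16%, 12.3% and 1.25% of all genes tested.

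Slc34a3, a sodium-phosphate cotransporter, had 9.07, 17.1 and 31.5 CPM in diabetic libraries, against 16.9, 38.1 and 54.5 CPM in nondiabetic libraries (−0.93, SE 0.142, adjusted p = 6.91e-06). Cyp4b1, a fatty acid hydroxylase of high level in male mouse kidney, had 646, 1340 and 2280 CPM in diabetic libraries, against 1150, 2890 and 3520 CPM in nondiabetic libraries (−0.93, SE 0.146, adjusted p = 1.17e-05). The groups overlapped in both genes, with all 18 diabetic libraries below the nondiabetic mean. Miox, which breaks down inositol, was the member called in each of the 3 strata (−0.72, adjusted p = 1.49e-06). The angiotensin-converting enzyme gene Ace (−0.65, adjusted p = 1e-05), the cystine and aspartate carrier gene Slc7a13 (−0.73, adjusted p = 1.18e-05), the endocytic receptor gene Lrp2 (−0.42, adjusted p = 2.05e-05) and the transcription factor gene Hnf4a (−0.30, adjusted p = 0.000153) were lower too. Slc5a2, the sodium-glucose cotransporter SGLT2, had 167, 223 and 555 CPM in diabetic libraries, against 158, 363 and 498 CPM in nondiabetic libraries, and was lower by a difference of −0.46 (SE 0.139, adjusted p = 0.00944), although its highest library was a diabetic one. Aqp1 (−0.05, adjusted p = 0.634) and Anpep (−0.09, adjusted p = 0.36) were not called.

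Of 20 genes known for higher levels in male than in female mouse kidney, 14 were lower (70%) and 0 were higher, with a median of −0.48. Several of them, such as Cyp4b1, Slc7a13 and Kap, also stand in the proximal tubule list. Of 14 genes known for higher levels in female mouse kidney, 3 were lower (21.4%) and 2 higher (14.3%), with a median of −0.18. Without the pair of libraries rich in structural RNA 5 of these 14 were lower and 2 higher. Of all genes tested, 16.2% were lower and 18.1% higher. Odc1, ornithine decarboxylase, had 114, 276 and 714 CPM in diabetic libraries, against 376, 589 and 856 CPM in nondiabetic libraries (−0.91, SE 0.19, adjusted p = 0.000381). In 49 genes of cytochromes P450 and conjugation, 24 were lower (49%) and 11 were higher (22.4%), beside 16.2% and 18.1% of all genes tested. Besides Ugt1a10, the higher ones included the retinaldehyde dehydrogenase genes Aldh1a1 (1.52, adjusted p = 2.37e-07) and Aldh1a7 (1.22, adjusted p = 2.79e-07), which resemble each other in sequence, and the epoxide hydrolase Ephx1, listed with p53 and NRF2 targets, had 40.4, 65.9 and 97.1 CPM in diabetic libraries, against 15.8, 24.5 and 45.2 CPM in nondiabetic libraries (1.28, adjusted p = 1.04e-09). Cyp2d12, of a family with similar members, fell to a median of 30.7 CPM in diabetic libraries, against 90.7 CPM in nondiabetic libraries (−1.36, SE 0.199, adjusted p = 3.45e-06).

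Markers of other nephron segments and of podocytes had medians above 0 over all treatments. Of 24 markers of Henle's loop and the distal convoluted tubule 9 were higher and 3 lower (median 0.15). Of 24 of the collecting duct 6 were higher and 0 lower (0.09), and of 23 of podocytes 10 were higher and 1 lower (0.21). Of all genes tested, 18.1% were higher and 16.2% lower. In the same order, 0, 0 and 0 were called higher with vehicle, 4, 4 and 7 with LXA4, and 1, 2 and 0 with benzo-LXA4. All genes tested were called higher in 3.44%, 15.4% and 2.81% with these treatments. The collecting duct median with vehicle was −0.02. Klhl3, which controls the breakdown of WNK kinases, differed by 0.40 (adjusted p = 4.32e-06), the epithelial sodium channel subunit Scnn1b by 0.34 (adjusted p = 0.000109) and nephrin (Nphs1), a protein of the podocyte slit diaphragm, by 0.40 (adjusted p = 0.000781). TMM-scaled CPM are relative levels, not amounts per cell. How far the higher levels of these markers depend on the lower levels of abundant proximal tubule transcripts was not tested.

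Of 45 genes of fatty acid oxidation 18 were lower, beside 16.2% of all genes tested, and 0 were higher, with a median of −0.23. The medium-chain acyl-CoA dehydrogenase gene Acadm, called in each stratum, had 297, 362 and 448 CPM in diabetic libraries, against 380, 482 and 697 CPM in nondiabetic libraries (−0.42, SE 0.0655, adjusted p = 8.15e-06). Ehhadh, an enzyme of peroxisomal oxidation, differed by −0.50 (adjusted p = 1.54e-05). Ppara, the nuclear receptor that switches these genes on, had medians of 201 CPM in diabetic and 196 CPM in nondiabetic libraries (0.06, 95% interval −0.13 to 0.25, adjusted p = 0.647). Of 49 nuclear-encoded genes of oxidative phosphorylation 28 were lower (57.1%) and 0 were higher, beside 16.2% and 18.1% of all genes tested. The list's median was −0.20, and 44 members were lower without the pair of libraries rich in structural RNA. By treatment, 0 members were called lower with vehicle, 29 with LXA4 and 1 with benzo-LXA4, beside 2.16%, 12.3% and 1.25% of all genes tested. The medians there were −0.16, −0.33 and −0.15, and 0 members were called in each stratum.

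Of 40 genes of cholesterol and fatty acid synthesis 22 were lower (55%) and 0 were higher, beside 16.2% and 18.1% of all genes tested. The list's median was −0.28. Cyp51, a demethylase of cholesterol synthesis called in each stratum, had 76.6, 109 and 144 CPM in diabetic libraries, against 126, 162 and 244 CPM in nondiabetic libraries (−0.59, SE 0.0743, adjusted p = 2.93e-07). Scd1, the stearoyl-CoA desaturase, had 36.5, 86.5 and 180 CPM in diabetic libraries, against 82.3, 152 and 2710 CPM in nondiabetic libraries (−1.46, SE 0.398, adjusted p = 0.00461). The highest value of Scd1 moved with fat markers, as given with the adipose list below, and with their level as a covariate Scd1 differed by −0.58 (adjusted p = 0.0799).

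Of 26 genes of glucose transport and gluconeogenesis 10 were lower (38.5%) and 3 were higher (11.5%), beside 16.2% and 18.1% of all genes tested. G6pc, which releases free glucose in gluconeogenesis, had 155, 317 and 510 CPM in diabetic libraries, against 224, 513 and 931 CPM in nondiabetic libraries (−0.76, SE 0.151, adjusted p = 0.000232), and the fructokinase gene Khk differed by −0.31 (adjusted p = 0.00504). Slc2a9, a urate transporter, was higher (0.52, SE 0.0828, adjusted p = 1.29e-05). In the kynurenine pathway a pair of enzymes went opposite ways. Kynu, kynureninase, had 8.74, 34.9 and 116 CPM in diabetic libraries, against 7.49, 12.6 and 31.4 CPM in nondiabetic libraries (1.73, SE 0.26, adjusted p = 5.6e-06), and Acmsd, a decarboxylase that diverts the pathway from NAD synthesis, had 29.5, 64.7 and 101 CPM in diabetic libraries, against 75.5, 119 and 196 CPM in nondiabetic libraries (−0.90, SE 0.144, adjusted p = 1.42e-05).

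Most listed chaperone genes of the endoplasmic reticulum and the cytosol were lower. Of 34 genes of the unfolded protein response and chaperones 22 were lower (64.7%) and 1 was higher (2.94%), with a median of −0.37. Of all genes tested, 16.2% were lower and 18.1% higher. Hsph1, a cytosolic heat shock protein, had 48.5, 70.1 and 195 CPM in diabetic libraries, against 88.6, 158 and 215 CPM in nondiabetic libraries (−0.90, SE 0.131, adjusted p = 3.17e-06). Dnajc3 (−0.42, adjusted p = 4.23e-08), a cochaperone of the endoplasmic reticulum, Pdia4 (−0.58, adjusted p = 1.29e-06), a disulfide isomerase, and Hsph1 were the members called in each stratum. Hspa5, the main chaperone of the endoplasmic reticulum, differed by −0.65 (adjusted p = 0.000848). The 1 higher member was Trib3 (0.60, adjusted p = 0.00465), a pseudokinase induced by the transcription factors ATF4 and CHOP, while Ddit3, which encodes CHOP, was not called (0.01, adjusted p = 0.95).

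**Figure D3:**
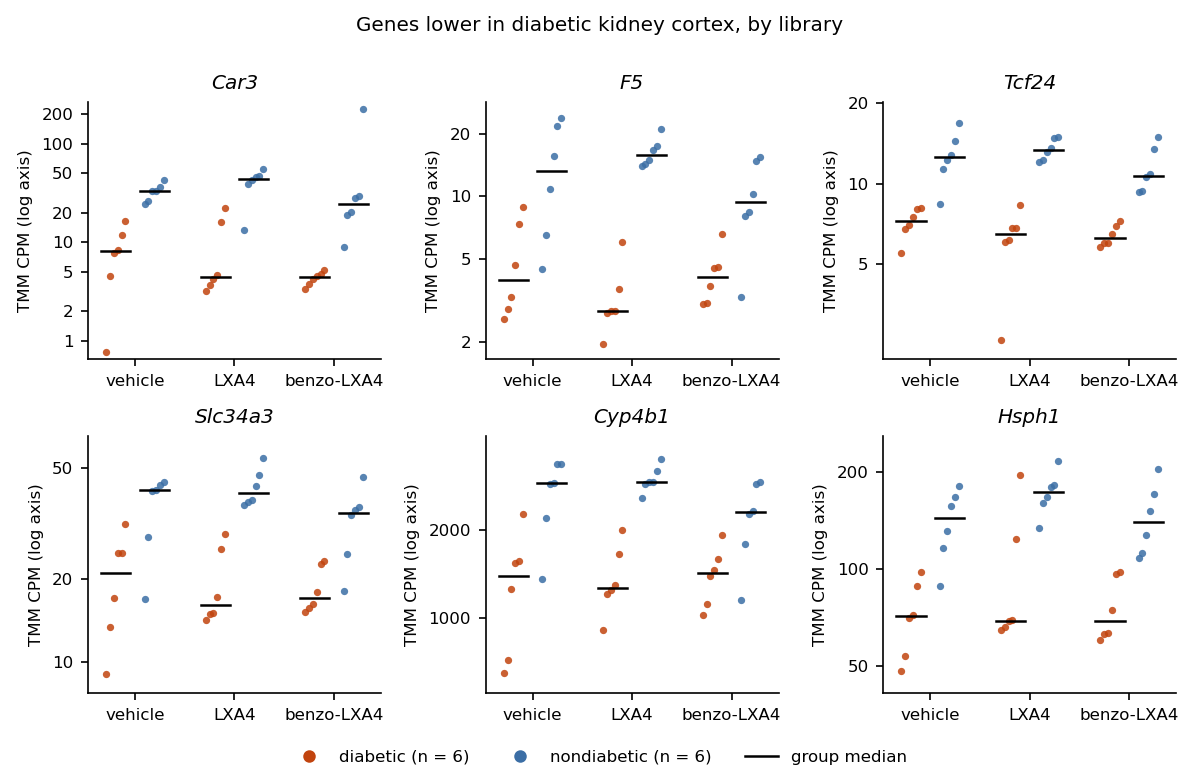
Level of 6 genes lower in diabetic mice in each library (vertical log axis, TMM CPM), by treatment, with 6 diabetic libraries left and 6 nondiabetic libraries right in each pair and a bar at the group median. Tcf24 is the only one of the 6 in which all 18 diabetic libraries lie below all 18 nondiabetic libraries, with a highest diabetic level of 8.3 CPM and a lowest nondiabetic level of 8.35 CPM.

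Tcf24, a gene of the basic helix-loop-helix transcription factor family, had 2.6, 6.8 and 8.3 CPM in diabetic libraries, against 8.35, 12.5 and 16.9 CPM in nondiabetic libraries (−0.91, SE 0.0889, adjusted p = 1.26e-09). Coagulation factor V (F5) had 1.95, 3.45 and 8.89 CPM in diabetic libraries, against 3.3, 14.5 and 23.7 CPM in nondiabetic libraries (−1.66, SE 0.218, adjusted p = 6.65e-07), with some overlap. Crb1, which encodes a protein of epithelial polarity, differed by −1.53 (SE 0.18, adjusted p = 8.75e-08), and the endothelial proteoglycan gene Esm1 by −1.01 (SE 0.168, adjusted p = 2.54e-05). Of 28 endothelial markers, 2 were higher (7.14%) and 2, Esm1 and Kdr, were lower (7.14%), beside 18.1% and 16.2% of all genes tested. Without the pair of libraries rich in structural RNA 7 were higher and 3 lower. Gja5, a gap junction gene, had the larger difference of the 2 markers higher with all libraries (0.83, adjusted p = 3.74e-07). The other leading lower genes were D630023F18Rik (−1.81), Ankrd34b (−1.70), Tm4sf4 (−1.40) and the predicted genes Gm44850 (−2.44), Gm15563 (−1.71) and Gm6300 (−1.67), with adjusted p from 9.13e-11 to 0.00164.

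Car3, carbonic anhydrase 3, which is abundant in fat and listed here with adipose markers, had 0.768, 4.59 and 22 CPM in diabetic libraries, against 8.92, 33.1 and 222 CPM in nondiabetic libraries. Its highest value came from nondiabetic benzo-LXA4 replicate 1, the other 5 libraries of that group stood between 8.92 and 29.5 CPM, and the difference was −2.56 (SE 0.372, adjusted p = 3.18e-06). With the levels of adipose and medullary markers as covariates it was −2.04 (adjusted p = 8.26e-08). Car3 is itself part of the adipose covariate, so some of this change may be built in. By treatment the groups did not overlap with vehicle or with benzo-LXA4, and overlapped with LXA4, where the highest diabetic library had 22 CPM and the lowest nondiabetic library 13.4 CPM.

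The listed adipose markers summed to 314, 606 and 926 CPM as the lowest, median and highest level in diabetic libraries, against 804, 1020 and 2540 CPM in nondiabetic libraries, and diabetic medians were below nondiabetic ones in each treatment. This sum includes Cd36 and Lpl, which other cell types express too. The defining markers alone overlapped widely between the groups. Adipoq, Plin1, Ucp1, Cidea and Cidec, which mark adipocytes and brown fat, summed to 0.0626, 0.357 and 18.3 CPM in diabetic libraries, against 0.0408, 0.274 and 382 CPM in nondiabetic libraries. Adipoq was at 0 in 3 diabetic and 9 nondiabetic libraries and Ucp1 in 9 and 8. Of the 14 listed adipose markers 5 were lower (35.7%) and 0 were higher over all treatments, beside 16.2% and 18.1% of all genes tested. The list's median was −1.44 over all treatments, 0.00 with vehicle, −0.17 with LXA4 and −6.71 with benzo-LXA4. The library with the sum of 382 CPM was nondiabetic benzo-LXA4 replicate 1. Cidea shows the pattern, with a fitted difference of −3.10 (SE 1.08, adjusted p = 0.0247) beside medians of 0.0627 CPM in diabetic and 0.0514 CPM in nondiabetic libraries. Once marker levels were covariates its difference was −0.69 (adjusted p = 0.119). Cidea is itself part of the adipose covariate, so some of this change may be built in. The part of fat in the differences of lipid genes was not tested beyond these covariates, under which 18 of the 40 genes of cholesterol and fatty acid synthesis were still lower and 1 was higher.

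Of 14 markers of urothelium and inner medulla, 5 were called higher and 1 lower with LXA4, beside 15.4% and 12.3% of all genes tested. With vehicle or benzo-LXA4 0 of these markers were called. Their summed level had medians of 670 CPM in diabetic and 853 CPM in nondiabetic libraries with vehicle, 676 CPM in diabetic and 820 CPM in nondiabetic libraries with LXA4, and 662 CPM in diabetic and 803 CPM in nondiabetic libraries with benzo-LXA4, and it includes the widely expressed gene Fxyd2. The defining markers of urothelium, Upk1b, Upk3a, Krt5 and Psca, summed to medians of 1.25 CPM in diabetic and 5.42 CPM in nondiabetic libraries with vehicle, 8.78 CPM in diabetic and 0.471 CPM in nondiabetic libraries with LXA4, and 3.44 CPM in diabetic and 4.28 CPM in nondiabetic libraries with benzo-LXA4. The urea transporter gene Slc14a2, of the inner medullary collecting duct, had medians of 10.3 CPM in diabetic and 14.3 CPM in nondiabetic libraries with vehicle, of 16 CPM in diabetic and 4.26 CPM in nondiabetic libraries with LXA4, and of 7.76 CPM in diabetic and 33.1 CPM in nondiabetic libraries with benzo-LXA4. Of the 14 listed markers 1, Fxyd2, was lower over all treatments and the median was −0.06. With their level as a covariate, alongside that of fat, 4388 genes were called, 4090 of them among the 5385.

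**Figure D4:**
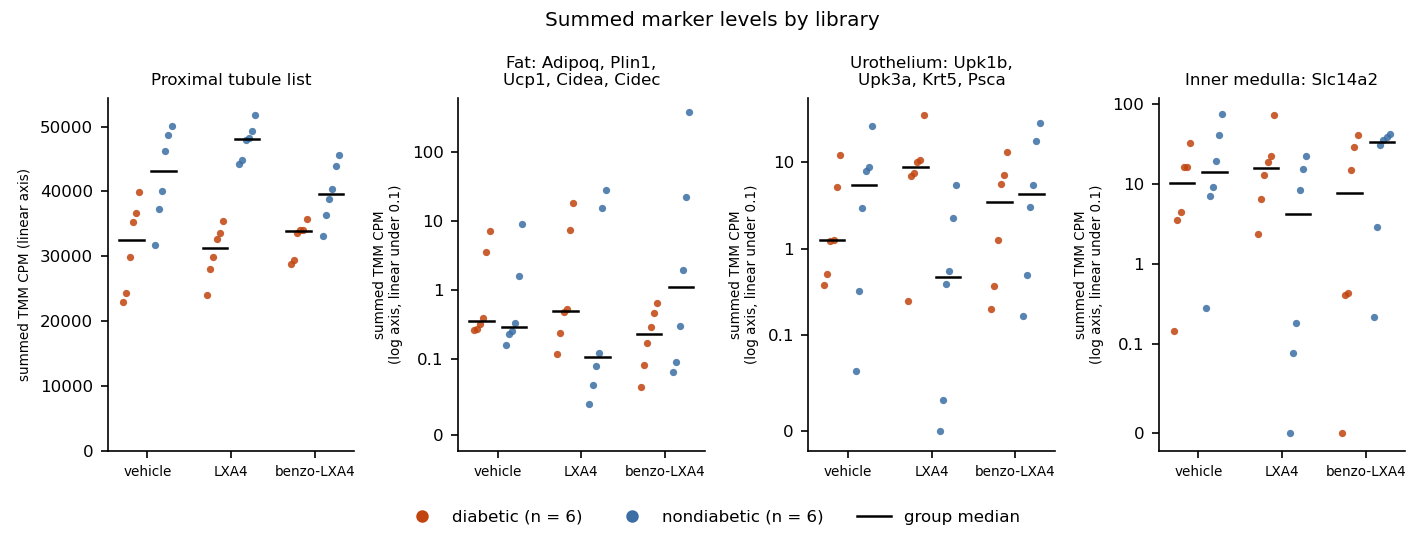
Summed level per library (vertical axis, TMM CPM) of the proximal tubule list (linear axis) and of markers of fat, urothelium and inner medulla (log axes that turn linear under 0.1), by treatment, with 6 diabetic libraries left and 6 nondiabetic libraries right in each pair and a bar at the group median. The proximal tubule sum has a median of 33100 CPM over the diabetic and 44500 CPM over the nondiabetic libraries, while the fat sum runs from 0.0626 to 18.3 CPM over the diabetic and from 0.0408 to 382 CPM over the nondiabetic libraries.

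Part of the immune markers were higher and 0 of those in the next 3 lists were lower, beside 18.1% higher and 16.2% lower of all genes tested. Of 22 myeloid markers 12 were higher and 0 were lower (median 0.29), and of 12 markers of T, NK and B cells 6 were higher and 0 lower (0.44). Of 39 genes of the interferon response and antigen presentation 15 were higher and 0 lower (0.25), or 26 and 0 without the pair of libraries rich in structural RNA. By treatment, 1 of these 39 was called higher with vehicle, 17 with LXA4 and 0 with benzo-LXA4, beside 3.44%, 15.4% and 2.81% of all genes tested. Their summed level was 1283 CPM in diabetic LXA4 replicate 5 and 1138 CPM in replicate 6. In diabetic libraries it was at most 990 CPM with vehicle and 956 CPM with benzo-LXA4. Cxcl10, a chemokine induced by interferon, had 1.42, 3.16 and 6.23 CPM in diabetic libraries, against 0.974, 1.29 and 2.92 CPM in nondiabetic libraries (1.22, SE 0.139, adjusted p = 4.43e-08). Cd247, a subunit of the T cell receptor complex, had 1.42, 2.41 and 3.31 CPM in diabetic libraries, against 0.872, 1.4 and 1.93 CPM in nondiabetic libraries (0.85, SE 0.103, adjusted p = 1.33e-07). Both genes were called in each stratum although their groups overlapped. The macrophage mannose receptor gene Mrc1 differed by 0.49 (adjusted p = 0.000579) and the complement gene C4b by 1.12 (adjusted p = 9.9e-05).

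Of 26 cytokine and NF-kB target genes 14 were higher (53.8%) and 1, Il1b, was lower (−0.61, adjusted p = 0.0491). Without the pair of libraries rich in structural RNA 17 were higher and 3 lower. Of 25 tubular injury genes 11 were higher (44%) and 0 were lower, with a median of 0.29. Of all genes tested, 18.1% were higher and 16.2% lower. Vcam1, an adhesion molecule, differed by 0.57 (adjusted p = 0.000114), Lcn2, a marker of injury of the distal nephron, by 1.06 (adjusted p = 0.0211), and Cxcl1 by 1.02 (adjusted p = 0.00154). Havcr1, the proximal tubule injury marker KIM-1, had 0.472, 2.12 and 5.21 CPM in diabetic libraries, against 0.425, 1.11 and 6.61 CPM in nondiabetic libraries, and was not called (0.60, 95% interval −0.01 to 1.21, adjusted p = 0.121). Without the pair of libraries rich in structural RNA it was called (0.81, adjusted p = 0.0174).

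Of 49 genes of the extracellular matrix 18 were higher (36.7%) and 3 were lower (6.12%), beside 18.1% and 16.2% of all genes tested. The list's median was 0.26, and none of its members was called in each stratum. Mmp2, a matrix metalloprotease, differed by 0.85 (SE 0.136, adjusted p = 1.5e-05), Fn1, fibronectin, by 0.61 (adjusted p = 0.000138) and Lama5, a laminin chain, by 0.41 (adjusted p = 3.92e-07). The fibrillar collagens Col1a1 (0.55, adjusted p = 0.251) and Col3a1 (0.40, adjusted p = 0.276) were not called, and Col8a1 was lower (−1.13, SE 0.195, adjusted p = 3.99e-05). The leukotriene C4 synthase gene Ltc4s had 5.09, 7.21 and 14.9 CPM in diabetic libraries, against 1.59, 2.54 and 5.49 CPM in nondiabetic libraries (1.53, SE 0.126, adjusted p = 2.03e-11), and was the eicosanoid gene called in each stratum. Bdkrb2, the bradykinin B2 receptor, differed by 1.14 (SE 0.144, adjusted p = 3.13e-07).

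Stress hormone target genes were higher in part. Of 18 glucocorticoid-responsive and metallothionein genes 9 were higher (50%) and 3 were lower (16.7%), beside 18.1% and 16.2% of all genes tested. The list's median was 0.41. Fkbp5, a chaperone of the glucocorticoid receptor, had 107, 240 and 642 CPM in diabetic libraries, against 121, 149 and 230 CPM in nondiabetic libraries (0.79, SE 0.154, adjusted p = 0.000199), and the metallothionein Mt1 had 18.3, 30.2 and 67.1 CPM in diabetic libraries, against 12.3, 16.3 and 33.3 CPM in nondiabetic libraries (0.90, SE 0.147, adjusted p = 2.06e-05). Tsc22d3 (−0.04, adjusted p = 0.834), another glucocorticoid target, was not called, and Pdk4 was lower (−0.96, adjusted p = 0.0201).

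**Figure D5:**
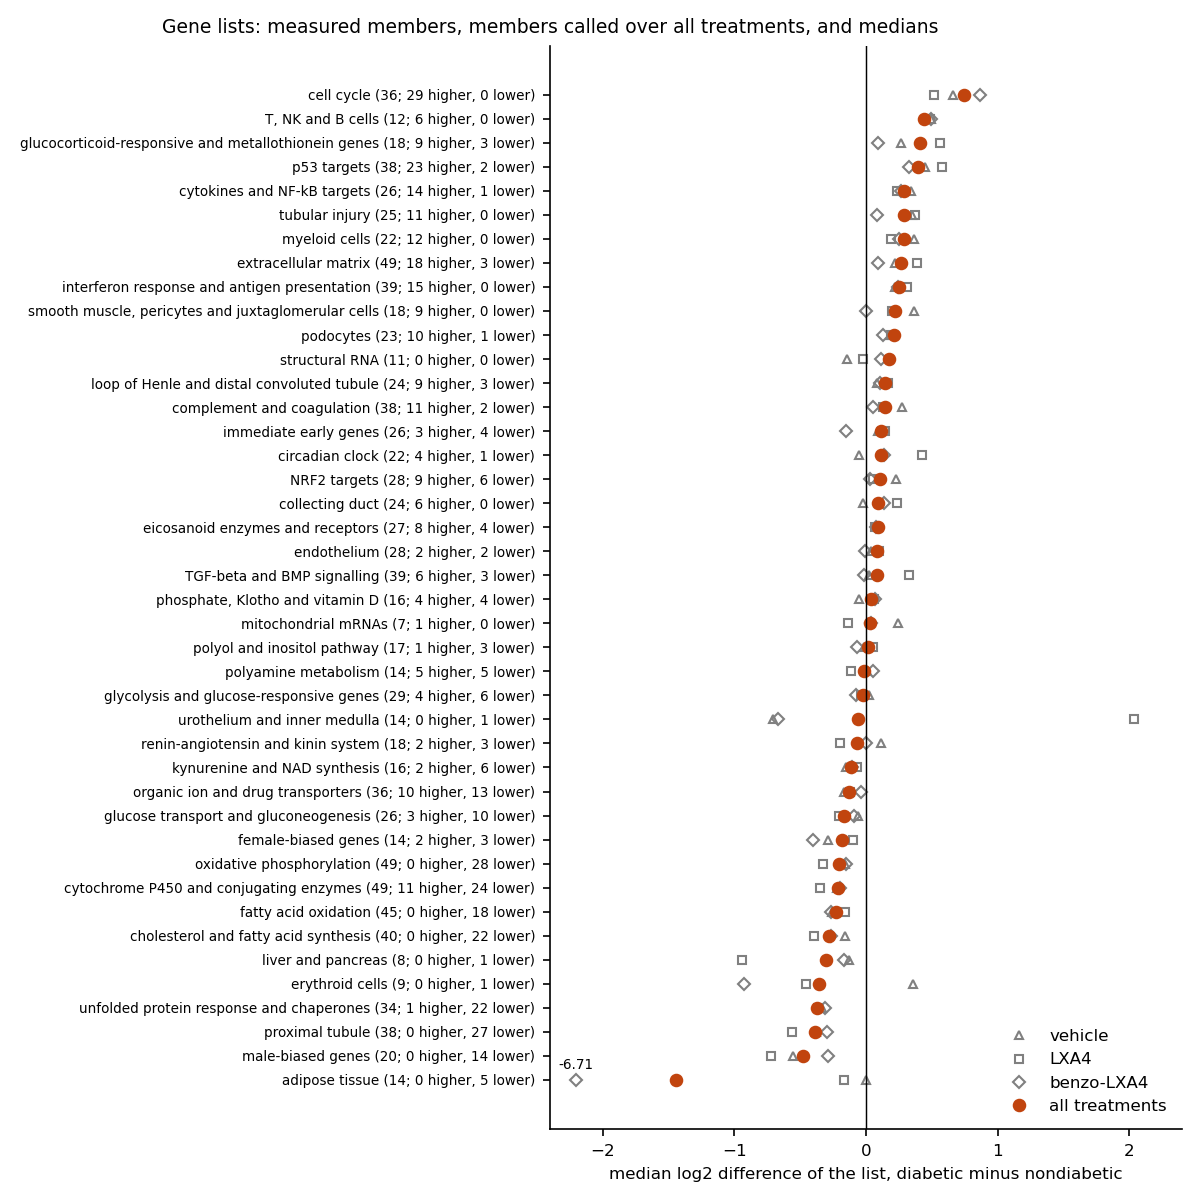
Median log2 difference of each gene list with at least 5 measured members (horizontal axis, diabetic minus nondiabetic), over all treatments (filled circles) and within each treatment (open symbols), with the members measured and called in brackets. The cell cycle list has the highest median at 0.75 and the adipose list the lowest at −1.44, whose benzo-LXA4 value of −6.71 lies beyond the axis and is drawn at its edge.

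The same direction in all 3 treatments was common among called genes. Of the 5385 called genes, 5147 (95.6%) had the same sign of difference in the 3 strata, 2700 of them higher and 2447 lower, beside 54.8% of all genes tested and 33.6% of the genes not called. Genes called over all treatments use the libraries of the 3 strata, so this share describes the calls and is not separate support for them. In 1687 genes the call was made over all treatments and in no stratum alone.

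A stricter count took genes called within each stratum in the same direction. The strata called 881 genes with vehicle (5.6%), 4353 with LXA4 (27.7%) and 638 with benzo-LXA4 (4.06%), and 223 genes (1.42% of those tested) were called in all 3, 172 higher and 51 lower. Without the pair of libraries rich in structural RNA the counts were 1399, 5796 and 1906, and 469 in all 3, among them 208 of the 223. The pair holds no benzo-LXA4 library, so the calls of a stratum also depend on libraries outside it. With only its own 12 libraries in the fit, 1875 genes were called with benzo-LXA4. The median absolute log2 difference of the 223 genes was 0.915 with vehicle, 0.877 with LXA4 and 0.916 with benzo-LXA4. Of the 223, 67 had their largest difference with vehicle, 103 with LXA4 and 53 with benzo-LXA4.

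Some of the 172 higher genes not yet named were the following. Brca1 (0.87, adjusted p = 1e-06) and Fancd2 (1.06, adjusted p = 2.69e-07) act in repair of crosslinks and breaks, Exo1 (1.38, adjusted p = 5.71e-06) is an exonuclease of mismatch repair, and Uhrf1 (1.13, adjusted p = 2.45e-07) maintains DNA methylation at replication. Apaf1, which assembles the apoptosome, differed by 0.38 (adjusted p = 1.15e-07) and the transcription factor gene Stat3 by 0.39 (adjusted p = 1.01e-06). Slc15a1, the peptide transporter PEPT1, differed by 1.38 (adjusted p = 4.57e-08) and Nos1, neuronal nitric oxide synthase, by 1.03 (adjusted p = 9.23e-09). The 51 lower genes held Npr3, the clearance receptor of natriuretic peptides, with 11.2, 15.4 and 21.1 CPM in diabetic libraries, against 20.5, 32.1 and 37.7 CPM in nondiabetic libraries (−0.99, adjusted p = 1.04e-10), and Car4, a membrane carbonic anhydrase (−0.79, adjusted p = 1.91e-07). These 10 genes were chosen after their values were seen.

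The test of whether the diabetes difference itself differed between treatments called 0 genes in edgeR, with 1824 genes at an unadjusted p under 0.05 and a lowest adjusted p of 0.0809. DESeq2 called 121 and voom with quality weights 61, of which 36 were the same genes, and edgeR called 4 among genes with a mean of at least 5 CPM, among them Kdm4b, 1600010M07Rik and Lamb3. These and Atoh8 were among the 5 genes with the lowest p in edgeR, and DESeq2 and voom called each of these 4. Kdm4b, a histone demethylase, differed by −0.06 with vehicle, 0.50 with LXA4 and 0.30 with benzo-LXA4, and the laminin chain gene Lamb3 by −0.41, 1.03 and 0.17. In both genes the LXA4 stratum had the highest value. The 1600010M07Rik gene followed the same order, with −1.07, 0.74 and −0.09, and Atoh8, a transcription factor gene, had −0.58, 0.73 and −0.89.

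Of 22 circadian clock genes 4 were higher (18.2%, beside 18.1% of all genes tested) and 1 was lower over all treatments, while 7 and 2 were called without the pair of libraries rich in structural RNA. Within treatments, 14 were called higher and 1 lower with LXA4, 0 and 0 with vehicle, and 0 and 1 with benzo-LXA4, where 27.7%, 5.6% and 4.06% of all genes were called. Per2, a repressor of the clock, differed by −0.54 with vehicle, 1.00 with LXA4 and −0.10 with benzo-LXA4 (interaction adjusted p = 0.15 in edgeR, and 0.00965 in voom). Cry2 differed by 0.03, 0.87 and 0.26 (interaction adjusted p = 0.186 in edgeR). Markers of inner medulla and urothelium moved in the same stratum, with the values given above, and their part in the clock values was not tested.

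Egr1, an immediate early transcription factor, was not called over all treatments. It had 6.71, 7.32 and 9.06 CPM in diabetic vehicle libraries, against 1.14, 3.82 and 6.76 CPM in nondiabetic vehicle libraries. With LXA4 it had 1.65, 2.57 and 3.71 CPM in diabetic libraries, against 1.38, 3.16 and 6.47 CPM in nondiabetic libraries. With benzo-LXA4 it had 2.69, 4.17 and 4.61 CPM in diabetic libraries, against 2.64, 2.97 and 4.55 CPM in nondiabetic libraries. The differences were 1.04, −0.35 and 0.23, and over all treatments 0.32 (SE 0.192, adjusted p = 0.194), with an interaction that did not pass (adjusted p = 0.28). Of 26 immediate early genes 3 were higher (11.5%) and 4 lower (15.4%) over all treatments, beside 18.1% and 16.2% of all genes tested. Among them were Btg2 (0.46, adjusted p = 4.24e-05), an antiproliferative gene that is also a p53 target, and Klf10 (−0.46, adjusted p = 0.00354).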

How the data were processed

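Each of 36 kidney cortex libraries was deposited by the authors as a column of raw read counts per gene, in a single table of 15730 genes. Per the submitters' processing notes, bcl2fastq 2.17.1.14, STAR and featureCounts were used with the GRCm38 genome. No version of STAR or featureCounts, no annotation release and no strand setting is stated in these sources. All 36 count columns were matched to sample labels, with 0 left over.

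From the counts, TMM scaling and the quasi-likelihood test of edgeR 4.0.16 (R 4.3.3) were applied to the 15726 genes that passed filterByExpr, with treatment and diabetes as additive terms. Differences within each treatment and the interaction of diabetes and treatment came from a fit of the 6 group means. P-values were adjusted by the Benjamini-Hochberg method over all genes, with a threshold of 0.05, and intervals are at 95% confidence. Levels are TMM-scaled CPM. Depth, from 8896193 to 43305005 counts per library, limits the precision of genes under about 1 CPM. Alternatives were RLE size factors, DESeq2 1.42.0, limma 3.58.1 voom with quality weights, other filters on low counts, the replicate number as a block, an average of the strata, single strata or treatments left out, the pair of libraries richest in structural RNA left out, and covariates for marker levels. The covariates were chosen after seeing the data.

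The comparison and the gene lists were chosen with earlier results of these data known. Genes were named by a rule: up to 12 called genes per direction with the largest difference, a mean of at least 1 CPM and the same sign in the 3 strata; up to 4 called members per list with the lowest p; Apoe, Egr1, Cdkn1a, Ccnd1, Ppara, Slc5a2, Havcr1 and Grem1; the 5 genes with the lowest interaction p; and up to 12 separated genes per direction with the largest gap. Other list members named, among them all those not called, and the clock genes were chosen after their values were seen. A gene that this rule names is not reported here. Gene spans are from GENCODE (GRCm38) and promoter windows from RefSeq (GRCm38.p6).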

Additional observations from a re-analysis of the deposited data

Results flagged for a closer look

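In 78 groups of 6 libraries, 10 had a library far from the other 5 of its group by Dixon's test, which chance does in about 1 in 20 groups. Ribosomal and small structural RNA genes took 56.9% of counts in diabetic LXA4 replicate 6 (others 2.23% to 5.94%), 17.7% in nondiabetic vehicle replicate 3 (2.03% to 3.35%) and 6.81% in nondiabetic LXA4 replicate 3 (1.94% to 3.04%). Eda2r had 0.945 CPM in diabetic LXA4 replicate 6, where the others had 8.85 to 11.7 CPM, and 0.458 CPM in nondiabetic vehicle replicate 3, where the others had 0.716 to 0.793 CPM. Plcd4 had 6.75 CPM in diabetic LXA4 replicate 5, beside 9.78 to 10.4 CPM in the others. Car3 had 222 CPM in nondiabetic benzo-LXA4 replicate 1, beside 8.92 to 29.5 CPM, and the listed adipose markers summed to 2540 CPM in that library, beside 822 to 1090 CPM. The listed markers of urothelium and inner medulla summed to 169 CPM in diabetic LXA4 replicate 6, beside 622 to 856 CPM, and erythroid markers to 433 CPM in nondiabetic LXA4 replicate 3, beside 321 to 350 CPM.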

How the results depend on the processing

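Of 126 called genes that the naming rule gives and all 12 alternatives tested, 95 kept their direction and their call in each, as did 36 of 41 others in every alternative that tested them. Without the pair of libraries rich in structural RNA, 7262 genes were called over all treatments, 47.4% of them higher, against 52.8% with all libraries. The counts were then 1399 with vehicle and 1906 with benzo-LXA4, 469 genes were called in each stratum, and 49 were separated. DESeq2 called 1330 with vehicle, 1064 with benzo-LXA4, 366 in each stratum and 121 for the interaction. Voom with quality weights called 8212 over all treatments, 2221 with vehicle, 6954 with LXA4, 2568 with benzo-LXA4, 845 in each stratum and 61 for the interaction. With a mean of at least 5 CPM, which leaves 11101 genes, these counts were 443 with vehicle, 305 with benzo-LXA4, 99 in each stratum and 4 for the interaction. With fewer libraries, 3297 genes were called without the LXA4 mice and 3383 without the benzo-LXA4 mice. With only the 12 libraries of a stratum, 342 were called with vehicle, 2338 with LXA4 and 1875 with benzo-LXA4. Within a treatment, same-numbered diabetic and nondiabetic libraries showed no clear pairing over the 2000 most variable genes. Correlations of their deviations ran from −0.339 to 0.324, and 4 of 18 were over 0.1. Pairing across treatments was not tested by these correlations. With the replicate block 5272 genes were called.

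Among the genes that the naming rule gives, signs turned round only in genes that were not called. Of all genes called over all treatments, 1 changed sign in voom with quality weights and 2 with marker covariates. Apoe differed by 0.0185 without the pair, 0.000864 with RLE size factors, 0.00765 in DESeq2, 0.0553 in voom, 0.00118 as an average of the strata, 0.000482 without vehicle mice, 0.0971 without benzo-LXA4 mice and 0.0433 with marker covariates. Without vehicle mice Egr1 differed by −0.0483 and 1600010M07Rik by 0.329. Without LXA4 mice Ppara differed by −0.0261 and Lamb3 by −0.116. Without benzo-LXA4 mice Atoh8 differed by 0.0747. The causes were not tested.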

Other observations

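Erythroid markers, a sign of blood left in the tissue, had a median log2 difference of −0.36 over 9 measured genes. It was 0.36 in the vehicle stratum, −0.45 in the LXA4 stratum and −0.92 in the benzo-LXA4 stratum. With benzo-LXA4 5 of the markers were called lower, beside 1.25% of all genes tested.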
